A study of Homo sapiens with 6 samples.

Results

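A set of 10 genes that are used as markers of a stem-like state in breast cancer were followed in SUM159 cells with and without overexpressed POGK. The genes were chosen by symbol, by their use as such markers, although earlier results of these data were known. They were ALDH1A1, ALDH1A3, CD44, CD24, PROM1, THY1, SOX2, SOX4, SOX9 and BMPR1B. Of these, 7 had a row among the 18398 genes of the count table, and all 7 passed the filter on low counts, so all 7 were tested. PROM1, THY1 and SOX2 had no row there and are not analysed here.

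SUM159 is a human breast cancer cell line of the triple-negative kind, with a mesenchymal character. The 3 control libraries came from SUM159 cells labelled as control and pLVX, a lentiviral vector, and the 3 POGK libraries from stable SUM159 cells labelled as overexpressing POGK from pLVX. Both groups grew in Ham's F12 medium with serum, insulin and hydrocortisone. The sources used here do not give whether the stable cells were 1 clone or a pool, which promoter drove POGK, or whether replicates were separate cultures. The p-values therefore speak of the spread among 3 libraries a group, which may be technical.

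Breast cancer cells that seed tumours and grow as spheres have been enriched by a few features: much CD44 and little CD24 on the surface, and high aldehyde dehydrogenase activity in the ALDEFLUOR assay. CD44 is the main receptor of hyaluronan, CD24 is a small mucin-like protein held in the membrane by a lipid anchor, and ALDH1A1 and ALDH1A3 are cytosolic enzymes that make retinoic acid from retinal. SOX4 and SOX9 are transcription factors that bind DNA through an HMG box, and BMPR1B is a type I receptor for bone morphogenetic proteins (BMPs). RNA levels do not measure surface protein or enzyme activity, and in bulk RNA fewer cells with a transcript and less of it per cell cannot be told apart.

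The 2 aldehyde dehydrogenase genes moved in opposite directions. The letters before their starts also differ widely and are shown here as description, and a link between the 2 was not tested. The sequences are the 250 bases before the most upstream RefSeq start of each gene (build GRCh38.p14, printed 5′ to 3′ on the gene's own strand), with each CG dinucleotide in capitals. The windows lie at chr9:72953054-72953303 (minus strand) for ALDH1A1, chr15:100879581-100879830 (plus strand) for ALDH1A3, chr6:106975628-106975877 (minus strand) for CD24 and chr6:21593501-21593750 (plus strand) for SOX4. CD24 and SOX4 are shown because they had the strongest falls among the other markers.
ALDH1A1: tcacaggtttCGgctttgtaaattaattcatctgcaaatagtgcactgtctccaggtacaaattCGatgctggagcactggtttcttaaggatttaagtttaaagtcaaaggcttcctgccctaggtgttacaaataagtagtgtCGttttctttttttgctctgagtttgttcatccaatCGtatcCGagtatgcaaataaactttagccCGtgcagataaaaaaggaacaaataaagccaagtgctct
ALDH1A3: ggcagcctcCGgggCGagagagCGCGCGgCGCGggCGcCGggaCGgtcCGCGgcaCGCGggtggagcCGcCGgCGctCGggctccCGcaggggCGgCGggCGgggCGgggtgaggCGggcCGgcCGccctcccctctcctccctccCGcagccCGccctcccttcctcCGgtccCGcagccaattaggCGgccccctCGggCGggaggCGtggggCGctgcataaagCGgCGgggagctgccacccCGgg
CD24: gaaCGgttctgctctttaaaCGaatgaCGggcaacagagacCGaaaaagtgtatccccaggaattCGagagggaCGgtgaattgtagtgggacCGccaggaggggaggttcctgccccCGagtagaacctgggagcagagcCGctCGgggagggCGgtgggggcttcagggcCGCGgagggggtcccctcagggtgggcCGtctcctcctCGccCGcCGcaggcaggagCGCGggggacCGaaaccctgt
SOX4: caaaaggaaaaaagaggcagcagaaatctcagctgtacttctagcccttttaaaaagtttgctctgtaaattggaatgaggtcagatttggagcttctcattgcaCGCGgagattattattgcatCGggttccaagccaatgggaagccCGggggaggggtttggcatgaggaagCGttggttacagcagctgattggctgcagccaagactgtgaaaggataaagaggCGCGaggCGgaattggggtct

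The ALDH1A1 window held 6 CG dinucleotides and 38.4% G or C, and the ALDH1A3 window 38 CG and 82.4% G or C. Over 35116 RefSeq windows of the same length the median was 11 CG. As many CG as ALDH1A3 or more were held by 3.28% of windows, and as many as ALDH1A1 or more by 61.9%. Both windows lie inside the longer gene spans that GENCODE gives, which include starts further upstream. The CD24 window held 20 CG and the SOX4 window 8. The letters CCAAT, searched on both strands, occurred once in the ALDH1A1 window, once in that of ALDH1A3 and at 4 places in that of SOX4, and 32.0% of all windows held them. GGGCGG, also on both strands, occurred at 6 places in the ALDH1A3 window, counting overlaps, once in that of CD24 and in neither of the others, and 42.6% of all windows held it. None of the 4 windows held TATAAA on either strand, which 10.7% of all windows did. Such matches describe letters only and do not show that a factor bound there. RefSeq windows were at hand for 6 of the 7 genes, and SOX9 is named only. The windows of CD44 and BMPR1B, which were also lower in POGK cells, are not printed and held 15 and 24 CG.

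POGK itself was checked first. Its counts were 1555, 2423 and 1987 in control and 26565, 28258 and 23128 in POGK libraries, with a log2 fold change of 3.48. All libraries thus followed their labels, although reads from the introduced copy and the cells' own gene were counted together. Total counts ran from 27645789 to 33689230. Between pairs of libraries of 1 group the chi-square per gene was 22.5 to 49.7 for control and 1.36 to 2.62 for POGK, so the control libraries spread far more than the POGK libraries. Of 12 markers listed for the line, 9 had a row. VIM, the mesenchymal filament gene, stood at 5960 ± 791 CPM in control cells (SD, n = 3). EPCAM and ESR1 stood at 0.222 and 0.207 CPM there. CPM here and below means counts scaled to the TMM-adjusted library size, not to library size alone. The summed level of the 9 was 6121 to 7526 CPM in control and 4005 to 4073 CPM in POGK libraries. All 7 that were tested passed the threshold given below, 3 as higher and 4 as lower, as did 66% of all genes tested. Of 14 markers of blood, endothelial, fat, liver, glial and smooth muscle cells, 9 had a row, with summed levels of 9.18 to 11.8 CPM in control and 9.42 to 10.3 CPM in POGK libraries.

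Of the 7 marker genes, 1 rose and 5 fell in POGK cells, and SOX9 did not pass the test (edgeR's quasi-likelihood test, called at a Benjamini-Hochberg adjusted p below 0.05 over all 15889 genes tested). The change was broad across the transcriptome: 66% of all genes tested were called, 32.7% as higher and 33.3% as lower (5202 and 5285 genes, or 6575 and 3925 when library size alone was used for scaling). In TMM-scaled CPM, control and POGK values were fully separate for 6 of the 7 markers, and likewise for 73.7% of all genes tested. Of the 7 markers 85.7% were called, against 66.0% of all genes tested. With so few genes that gap is not read as a result, and the description that follows is about direction, size and level. Their median log2 fold change was -0.83, against 0.0025 over all genes tested.

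**Figure D1:**
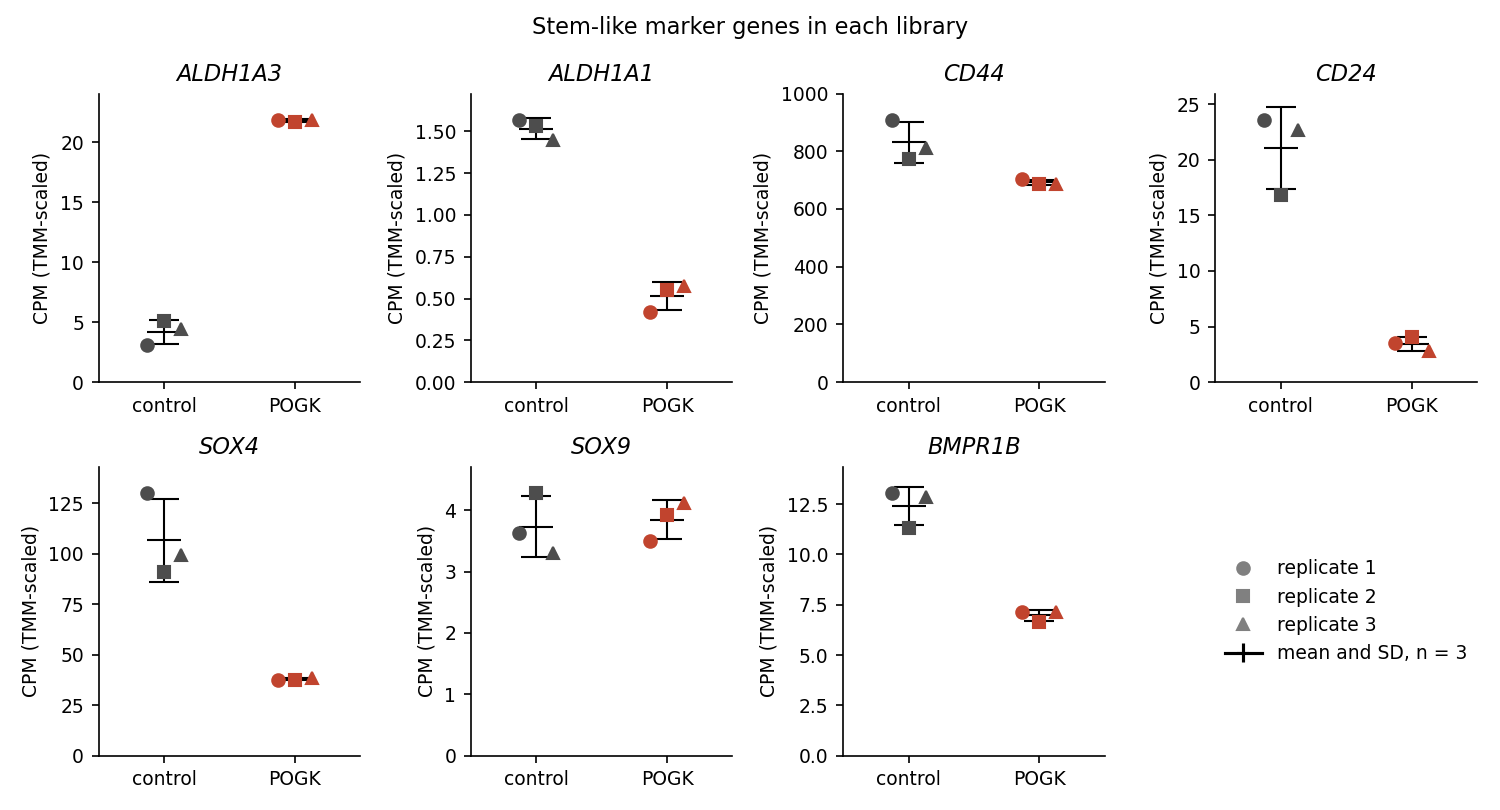
Level of each marker gene in the 6 libraries, in CPM on TMM-scaled library sizes (linear axes from 0). Circles, squares and triangles are replicates 1, 2 and 3, and bars give the mean and SD of 3 libraries. ALDH1A3 is higher in every POGK library, CD44, CD24, SOX4, BMPR1B and ALDH1A1 are lower in every POGK library, and the SOX9 groups overlap.

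ALDH1A3 (ENSG00000184254; hg38 chromosome 15, 100877714 to 100916626, plus strand) is the isoform tied to ALDEFLUOR activity in many breast cancers. Its counts were 78, 160 and 131 in control and 782, 786 and 649 in POGK libraries. In CPM these were 3.14, 5.11 and 4.41 against 21.9, 21.7 and 21.9. The lowest POGK library thus lay far above the highest control library, and the control libraries were the uneven ones, with replicate 1 lowest. The gene rose 5.13-fold, with a log2 fold change of 2.36 (standard error 0.16, edgeR adjusted p = 8.06e-06). Of all genes tested, 3.15% had a larger change in either direction.

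A lncRNA gene on the opposite strand, ALDH1A3-AS1, shares 1715 exonic bases with ALDH1A3, and the sources used here give no strand setting for the counting. It had 12, 39 and 24 counts in control and 76, 87 and 72 in POGK libraries, with a log2 fold change of 1.42 (edgeR adjusted p = 0.00186). Its counts came to 19.4 ± 4.58% of those of ALDH1A3 in control and 10.6 ± 0.787% in POGK cells (SD, n = 3 each). Reads in the shared exons cannot be told apart.

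ALDH1A1 (ENSG00000165092; chromosome 9, 72900671 to 73080442, minus strand), the classic stem cell aldehyde dehydrogenase, was the least abundant marker. It had 39, 48 and 43 counts in control and 15, 20 and 17 in POGK libraries. In CPM the control libraries held 1.57, 1.53 and 1.45 and the POGK libraries 0.419, 0.553 and 0.574, with no overlap. It fell 2.94-fold, with a log2 fold change of -1.56 (standard error 0.22, edgeR adjusted p = 2.90e-04). Counting error alone gives a coefficient of variation of 15.2% at the control counts and 24.0% at the POGK counts, so the size of this fall is less precise than that of ALDH1A3.

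The balance between the 2 isoforms shifted accordingly. Of the ALDH1A1 and ALDH1A3 counts, ALDH1A3 supplied 66.7, 76.9 and 75.3% in control and 98.1, 97.5 and 97.4% in POGK libraries. Every POGK library was above every control library (72.96 ± 5.51% against 97.7 ± 0.368%, SD, n = 3 each, two-sided exact permutation p = 0.1, the smallest that 3 against 3 allows). The summed level of the pair was 3.89 times as high, at 5.74 ± 0.971 CPM in control and 22.3 ± 0.110 CPM in POGK cells.

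Among the 19 genes of the aldehyde dehydrogenase family, 16 were tested, of which 4 rose and 7 fell, with a median log2 fold change of -0.13. These counts include both markers, and 68.8% of the tested family was called, against 66.0% of all genes tested. ALDH16A1 rose 2.13-fold, and ALDH1B1, a mitochondrial enzyme also named as a stem cell marker in colon, rose from 35.9 ± 4.81 to 58.03 ± 0.369 CPM. ALDH8A1 fell 3.53-fold, and ALDH1L2, the mitochondrial enzyme of folate metabolism, fell 2.95-fold. ALDH2, the main acetaldehyde enzyme, named after its values were seen, had at most 13 counts in any library and was not tested. When library size alone was used for scaling, 7 of the family rose, 5 fell and the median was 0.06. That scaling moves the median of all genes to 0.19, so all directions given are on the TMM scale.

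Retinoic acid, the product of the ALDH1A enzymes, acts through RAR and RXR receptors and is broken down by CYP26 enzymes. Of 22 listed symbols of this pathway, which hold PLAAT4 under an older symbol as well, 13 genes were tested. Among them 4 rose and 8 fell (92.3% called, against 66.0% of all genes tested), with a median of -0.64. DHRS9 and RDH10, dehydrogenases that make retinal from retinol, rose 3.72-fold and 1.87-fold. CYP26B1 rose from 6.82 ± 1.27 to 10.99 ± 0.965 CPM. DHRS3, which turns retinal back to retinol, fell from 23.1 ± 6.17 to 4.30 ± 0.652 CPM, STRA6, the receptor that takes up retinol, fell 4.66-fold, and PLAAT4, a phospholipase gene induced by retinoids, fell 2.66-fold. Among the receptors, chosen for mention after their values were seen, RARA fell from 164 ± 32.05 to 62.6 ± 0.497 CPM, RXRA fell 1.72-fold and RXRB 1.56-fold. RARG fell 1.34-fold on the TMM scale and lost its call with library size alone, at -0.22 on the log2 scale.

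CD44 (ENSG00000026508; chromosome 11, 35138882 to 35232402, plus strand) was by far the most abundant marker. It had 22586, 24187 and 24088 counts in control and 25127, 24869 and 20343 in POGK libraries. In CPM the control libraries held 909, 772 and 811 and the POGK libraries 702, 687 and 686. On the TMM scale every POGK library was lower, but the drop was small, at 1.20-fold. The log2 fold change was -0.26, with a 95% interval from -0.45 to -0.07 (edgeR adjusted p = 0.0208). Of all genes tested, 72.6% had a larger change. This call was lost with library size alone, at a log2 fold change of -0.066, and without POGK replicate 1, 2 or 3 in turn (edgeR adjusted p = 0.0728, 0.0901 and 0.0951). Over all 13 alternatives its adjusted p ran from 0.00485 to 0.310. In both groups CD44 lay at the top of the transcriptome, at percentile 99.0 of tested genes in control and 99.2 in POGK cells by CPM. The counts are per gene and do not separate the standard CD44 form from its splice variants. CD44-AS1, on the opposite strand, had at most 18 counts in any library.

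CD24 (ENSG00000272398; chromosome 6, 106969831 to 106975627, minus strand) was counted 586, 526 and 674 times in control and 126, 147 and 83 times in POGK libraries. In CPM these were 23.6, 16.8 and 22.7 against 3.52, 4.06 and 2.80. The highest POGK library lay well below the lowest control library. CD24 had the largest fall of the 7 markers, 6.03-fold, with a log2 fold change of -2.59 (standard error 0.18, edgeR adjusted p = 8.91e-06), and 2.52% of all genes tested changed more. Its spread was about as wide in POGK as in control cells, at a coefficient of variation of 18.3% against 17.6%. The annotation holds 4 pseudogenes of CD24, none of which had a row in the table, so its counts are uncertain where reads match a copy equally well.

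The surface marker balance is independent of scaling between libraries. For each CD24 count there were 38.5, 46.0 and 35.7 CD44 counts in control, and 199, 169 and 245 in POGK libraries. On the log2 scale, with 0.5 added to each count, the ratio was 5.32 ± 0.186 in control and 7.65 ± 0.266 in POGK cells (SD, n = 3 each), a difference of 2.34 (two-sided exact permutation p = 0.1, the smallest possible). All POGK libraries lay above all control libraries. On the TMM scale both genes were lower in POGK cells, CD24 6.03-fold and CD44 1.20-fold. With library size alone CD44 was not called, at a log2 fold change of -0.066.

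**Figure D2:**
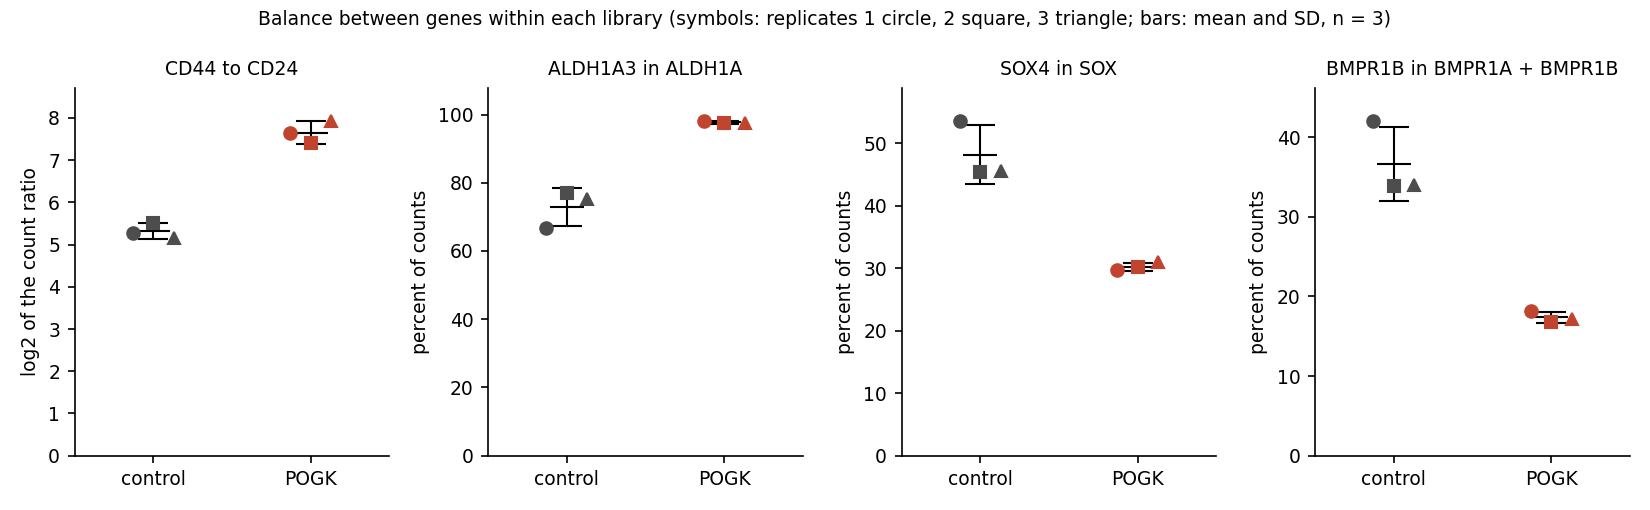
Balance between genes within each library, on linear axes from 0: the log2 ratio of CD44 to CD24 counts, the percent of ALDH1A counts from ALDH1A3, of SOX family counts from SOX4, and of BMPR1A and BMPR1B counts from BMPR1B. Each symbol is a library and bars give the mean and SD of 3; the first 2 balances are higher and the last 2 lower in every POGK library.

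Genes that make, cut or bind hyaluronan, or that bind or cleave CD44, formed a list of 22, of which 17 were tested. Among them 10 rose and 2 fell (70.6% called, against 66.0% of all genes tested), with a median log2 fold change of 0.49. HAS2 and HAS3, enzymes that make hyaluronan, rose 2.83-fold and 1.88-fold, HAS2 from 2.004 ± 0.462 to 5.72 ± 0.244 CPM. HMMR, a second hyaluronan-binding protein whose expression follows the cell cycle, rose 1.90-fold. The 3 genes of the proteins that tie the CD44 tail to actin rose together, as seen after their values were known: EZR 1.48-fold, MSN 1.52-fold and RDX 1.46-fold. MMP14, a membrane protease that can cleave CD44, fell from 43.03 ± 7.64 to 5.13 ± 0.468 CPM, and CEMIP, which helps break down hyaluronan, fell 2.36-fold. Other listed genes for cutting hyaluronan or CD44, named after their values were seen, rose: HYAL2 1.31-fold, HYAL3 1.72-fold and ADAM10 1.17-fold. HYAL2 lost its call without POGK replicate 3, and HYAL1, CEMIP2 and ADAM17 did not pass. ESRP1, a splicing factor that favours CD44 variant forms, also named after its values were seen, was at 0.896 ± 0.199 CPM in control and 0.822 ± 0.132 CPM in POGK cells and did not pass.

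SOX4 (ENSG00000124766; chromosome 6, 21593751 to 21598619, plus strand), a factor known from TGF-beta responses and mesenchymal transition, had 3228, 2849 and 2944 counts in control and 1341, 1362 and 1138 in POGK libraries. In CPM the control libraries held 129.9, 90.9 and 99.2 and the POGK libraries 37.5, 37.6 and 38.4. Control replicate 1 was the highest, and the POGK libraries were nearly equal, with no overlap. SOX4 fell 2.82-fold, with a log2 fold change of -1.49 (standard error 0.12, edgeR adjusted p = 1.94e-05).

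SOX9 (ENSG00000125398; chromosome 17, 72121020 to 72126416, plus strand), a factor of mammary progenitors, had 90, 134 and 98 counts in control and 125, 142 and 122 in POGK libraries. In CPM these were 3.62, 4.28 and 3.30 against 3.49, 3.93 and 4.12, and the groups overlapped. The log2 fold change was 0.04 with a 95% interval from -0.31 to 0.39 (edgeR adjusted p = 0.836), so a change inside that interval remains possible. Its sign turned when control replicate 3 or POGK replicate 3 was left out.

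Of the 20 SOX family genes, 7 had a row and 6 were tested, SOX4 and SOX9 included. Among them 3 fell and 1 rose (66.7% called, against 66.0% of all genes tested). SOX12, the close relative of SOX4, fell from 83.5 ± 4.12 to 59.3 ± 1.75 CPM. SOX13 fell 1.37-fold at an edgeR adjusted p of 0.0441, and this call was lost with limma-voom, with library size alone, without control replicate 3 and without any POGK replicate. SOX5, named after its values were seen, was the 1 gene that rose, 1.46-fold at an edgeR adjusted p of 0.0409 with overlapping groups, and its call held only without control replicate 3 among the 6 fits that leave out a library. The summed SOX level was 220 ± 21.3 CPM in control and 125 ± 1.20 CPM in POGK cells. SOX4 supplied 48.2 ± 4.67% of these counts in control and 30.3 ± 0.633% in POGK cells, while SOX9 supplied 1.72 ± 0.365% and 3.08 ± 0.283% (SD, n = 3 each).

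BMPR1B (ENSG00000138696; chromosome 4, 94757955 to 95158448, plus strand) had 324, 355 and 381 counts in control and 255, 241 and 211 in POGK libraries. In CPM the control libraries held 13.04, 11.3 and 12.8 and the POGK libraries 7.13, 6.66 and 7.12. All POGK libraries were lower, by more than the spread of either group. It fell 1.78-fold, with a log2 fold change of -0.83 (standard error 0.11, edgeR adjusted p = 1.91e-04). The other type I BMP receptor of this class, BMPR1A, chosen after its values were seen, went the other way and rose from 21.7 ± 3.49 to 33.1 ± 1.13 CPM. BMPR1B thus supplied 42.02, 33.9 and 34.0% of the counts of the pair in control and 18.1, 16.8 and 17.2% in POGK libraries.

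The BMP pathway as a whole was mixed. Of 33 listed genes, BMPR1B and BMPR1A included, 22 were tested. Among them 5 rose and 8 fell (59.1% called, against 66.0% of all genes tested), with a median log2 fold change of -0.18. With library size alone 8 rose and 6 fell at a median of 0.02. Among ligands, BMP8B fell 6.58-fold and BMP4 fell from 4.30 ± 1.07 to 0.727 ± 0.0487 CPM. BMP8B has a near-identical copy, BMP8A, so its counts are uncertain where reads could be split. The target genes ID1 and ID3, inhibitors of differentiation factors, rose 2.61-fold and 1.75-fold. ID2, of the same family and named after its values were seen, had overlapping groups and did not pass (log2 fold change 0.16, edgeR adjusted p = 0.350). It was called higher with library size alone and without control replicate 1. ID1 was uneven in control cells, at 43.4 ± 13.3 CPM against 114 ± 9.23 CPM in POGK cells. Among the inhibitory SMADs, SMAD6, which acts mainly on BMP signals, rose 1.77-fold, and SMAD7, which acts on both BMP and TGF-beta signals, fell from 29.03 ± 6.23 to 10.96 ± 0.870 CPM.

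To compare levels between genes, CPM was divided by the exon length of each gene in kilobases. In control cells the order was CD44 at 83.2 ± 7.06, SOX4 at 21.9 ± 4.22, CD24 at 6.79 ± 1.19, BMPR1B at 1.89 ± 0.142, SOX9 at 0.950 ± 0.127, ALDH1A3 at 0.791 ± 0.187 and ALDH1A1 at 0.534 ± 0.0218 CPM per kilobase (SD, n = 3). Only the neighbours SOX9 and ALDH1A3 overlapped. In POGK cells ALDH1A3 moved up to the third place at 4.09 ± 0.0167, behind CD44 at 69.3 ± 0.897 and SOX4 at 7.77 ± 0.0995. CD24 at 1.12 ± 0.205, BMPR1B at 1.06 ± 0.0406 and SOX9 at 0.978 ± 0.0810 could not be ordered, since each overlapped the next, and ALDH1A1 was last at 0.181 ± 0.0295 CPM per kilobase.

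**Figure D3:**
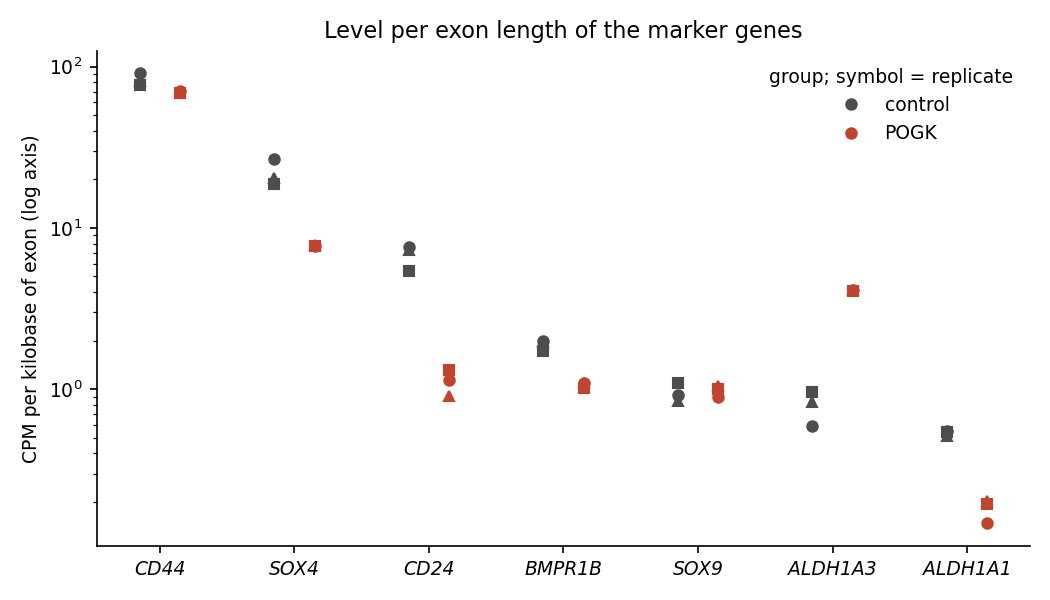
Level of the 7 marker genes per exon length (CPM per kilobase, log axis), ordered by control level. Grey symbols are control and red symbols POGK libraries, with circle, square and triangle for replicates 1, 2 and 3. ALDH1A3 moves from the sixth place in control to the third in POGK cells, while CD24 falls to the level of BMPR1B and SOX9.

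A further list of 30 genes used as stem-like markers in breast or other tissues had 21 tested genes. Among them 5 rose and 12 fell (81.0% called, against 66.0% of all genes tested), with a median log2 fold change of -0.30. With library size alone the balance was more even, with 6 higher and 8 lower at a median of -0.10. ABCG2, the drug efflux pump that marks side population cells, rose 4.20-fold from 3.96 ± 0.777 to 16.7 ± 0.780 CPM. LIN28B, an RNA-binding protein that blocks let-7 microRNAs, rose 2.52-fold, and ENG, a co-receptor for TGF-beta and BMP ligands, rose 1.75-fold. CXCR4, a chemokine receptor of migrating tumour cells, had 95, 67 and 80 counts in control and 4, 7 and 1 in POGK libraries and fell 23.6-fold, or 35.6-fold without POGK replicate 2. MUC1 fell 4.02-fold and KLF4, a pluripotency factor, fell from 42.1 ± 10.1 to 14.3 ± 0.953 CPM. Named after their values were seen, ITGA6, the integrin of basal and stem-like mammary cells, rose 1.45-fold, and PROM2, the paralogue of PROM1, had 10, 18 and 18 counts in control against 1, 5 and 1 in POGK libraries. NANOG, LGR5 and CXCR1 are among the 7 genes of this list without a row and are not analysed here.

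Mesenchymal genes, which often go with a CD44-high and CD24-low state, were all tested: 13 of the 18 fell and 4 rose (10 and 4 with library size alone). The median log2 fold change was -0.76, and 94.4% were called, against 66.0% of all genes tested. FN1 fell 3.17-fold, TGFBI 3.16-fold and LOX 17.0-fold, whereas PRRX1, a mesenchymal homeobox factor, rose from 3.48 ± 1.20 to 30.8 ± 0.286 CPM and CDH11 rose 6.09-fold. AXL rose 1.25-fold.

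**Figure D4:**
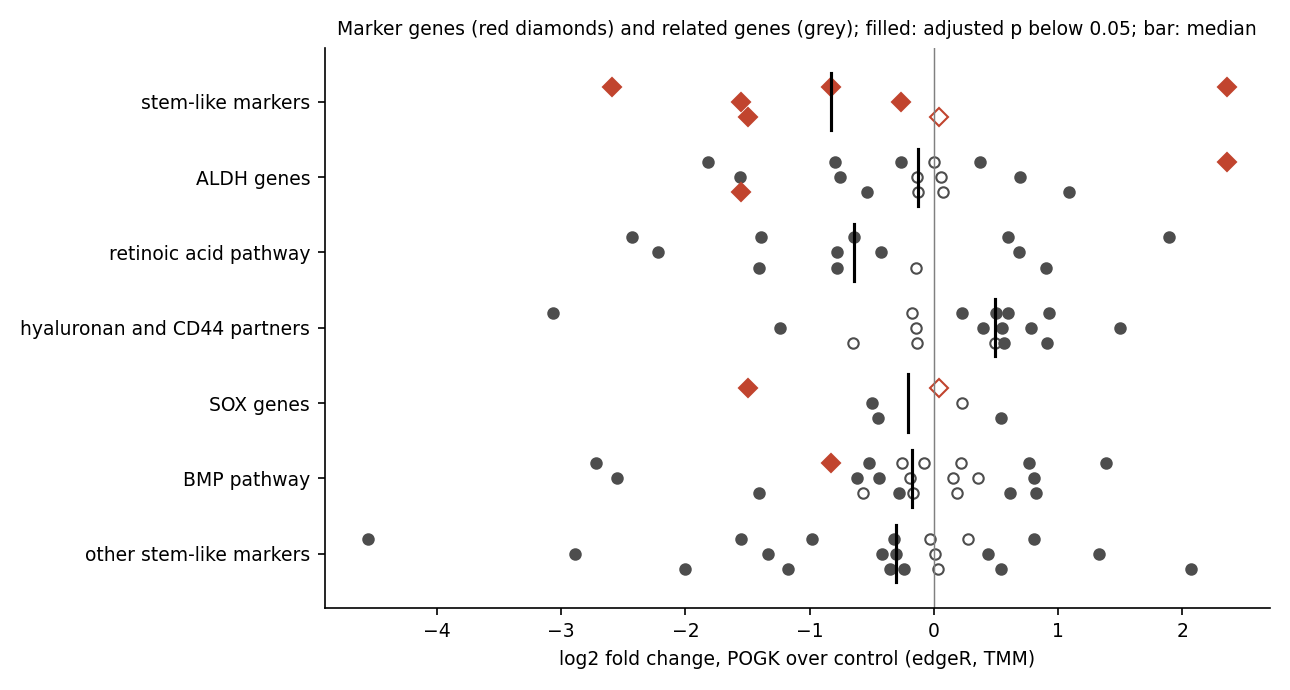
Log2 fold change (POGK over control, edgeR on the TMM scale) of the 7 stem-like markers (red diamonds) and of the genes of 6 related lists (grey circles), 1 symbol per tested gene. Filled symbols passed an adjusted p below 0.05 and black bars are medians; markers that belong to a list appear there too. The markers run from CD24 at -2.59 to ALDH1A3 at 2.36.

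In the authors' deposited table the same 7 genes had log2 fold changes of 2.37 for ALDH1A3, -1.56 for ALDH1A1, -0.26 for CD44, -2.60 for CD24, -1.49 for SOX4, 0.04 for SOX9 and -0.83 for BMPR1B. Its adjusted p for CD44 was 0.0330 and for SOX9 0.858.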

How the data were processed

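RNA was sequenced from 3 control and 3 POGK libraries after removal of ribosomal RNA and aligned to hg38, per the labels' protocols. Per the submitters' processing notes, Trimmomatic, STAR, SAMtools, deepTools and featureCounts were used, without versions. The authors deposited raw read counts per Ensembl gene. The deposited normalised signal equals each library's counts over a constant, judged by its values, and was not tested. Per the file headers, the authors' table gives log2 fold changes with standard errors, p-values and adjusted p-values from a tool that is not named.

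The counts of all genes were tested with edgeR 4.0.16 (R 4.3.3; quasi-likelihood, robust, TMM scaling, default filter, 15889 of 18398 genes). Standard errors come from the F statistic. Positions and exon lengths come from GENCODE release 44 (18264 identifiers matched). The script was tested on simulated data with 200 changed genes, balanced between directions. Far fewer genes changed there than were called here, so the scaling of these data was not tested by it. Alternatives were DESeq2 1.42.0, limma-voom 3.58.1, other scalings and filters, the replicate block, and each library left out.

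The markers and lists were chosen with earlier results of these data known. From each list the text names up to 3 called genes per direction with the largest change, a mean of at least 1 CPM and no overlap between groups. Other listed genes, apart from the markers and the checks of the cell line, were named after their values were seen. The smallest row total was 21.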

Additional observations from a re-analysis of the deposited data

How the results depend on the processing

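Of the 7 markers, ALDH1A3, ALDH1A1, CD24, SOX4 and BMPR1B kept their direction and call under all 13 alternatives. The log2 fold change of CD44 was -0.066 with library size alone, where its call was lost, and -0.31 to -0.19 with 1 library left out, where its call was lost without each POGK replicate. SOX9, never called, lay between -0.048 and 0.15 with 1 library left out, at -0.048 without control replicate 3 and -0.0035 without POGK replicate 3. With library size alone, 7 ALDH and 8 BMP pathway genes rose. The count of SOX genes that rose was 0 to 1 with 1 library left out. The CD44 to CD24 difference then lay between 2.20 and 2.47 on the log2 scale, and the ALDH1A3 share was higher by 21.6 to 26.7 percentage points. Same-numbered libraries correlated by 0.0867, 0.0410 and 0.0028 in their deviations from the group means, so they were not taken as pairs. With the replicate number as a block, 1 marker rose and 5 fell as before, and 10239 genes in place of 10487 were called. The low counts of ALDH1A1 limit how precisely its fall is known.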
